A study of Arabidopsis thaliana with 12 samples.

Results

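The early response to PLT5 was read from the libraries made 8 h after induction, 6 of the 12 libraries of the series. They were chosen by their labels, the 3 titled Induced, 8 hours and the 3 titled Mock, 8 hours, and no measured value entered the choice. All plants, the mock group too, were Arabidopsis thaliana carrying 35S:XVE>>PLT5-TagRFP, in which estradiol activates the regulator XVE, made from the broadly active 35S promoter, and XVE then switches on PLT5 fused to the fluorescent protein TagRFP. Induced roots received EST (estradiol) and mock roots the solvent DMSO, for 8 h, with 3 biological replicates of each. Each sample pooled segments of 1.5 cm, cut below the border of root and hypocotyl, from 15 individuals after visible lateral roots had been taken off. Since 35S drives XVE, the response is not limited to cells that use PLT5 natively, and the labels list no group that had estradiol without the construct, so effects of estradiol itself cannot be told apart from those of PLT5.

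PLT5 (PLETHORA 5, also AINTEGUMENTA-LIKE 5) belongs to the AP2-domain transcription factors of the PLETHORA and AINTEGUMENTA group. In Arabidopsis these proteins are known to keep stem cells and dividing cells active in root and shoot tips, and PLT3, PLT5 and PLT7 act together in lateral root outgrowth and in the placing of organs at the shoot. The older root segments sampled here hold cambium, vascular tissue and the cork-forming periderm rather than a root tip.

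Values are CPM, counts per 1000000 counts of a library after scaling with the TMM factors of edgeR. Fold changes are given on the log2 scale as induced over mock with their standard error (SE). Rose, fell, higher and lower are used of single genes for an adjusted p under 0.05 in edgeR's quasi-likelihood test (Benjamini-Hochberg adjustment over all genes tested), called for short, and means carry the SD of 3 libraries. The 6 libraries held 34958324 to 41174019 counts, and replicates of a group correlated at 0.991 to 0.993 across genes, which are not independent of each other. In TAIR10 coordinates, PLT5 lies at chromosome 5, 23252989 to 23256703, minus strand. Its locus, AT5G57390, had 2385, 2632 and 2383 CPM in induced roots, against 12.58, 12.26 and 14.98 CPM in mock roots, so the induced gene followed the labels in every library. In bulk tissue, fewer cells of a type and less RNA per cell cannot be told apart. Of the marker lists, those for cambium (230.3 to 272.1 CPM summed in induced libraries, 480.6 to 541.1 in mock), periderm (280.7 to 336.5 against 466 to 575.1), pericycle (53.73 to 58.53 against 127.2 to 156.5) and endodermis (17.87 to 24.41 against 34.99 to 47.69) did not overlap between groups and were lower in induced roots. Lateral root primordium markers (7.294 to 9.749 against 3.321 to 3.578) and phloem markers (429 to 486.7 against 287.4 to 370.7) were higher without overlap. A lack of overlap was common here: taken singly, 55.1% of all genes tested had no overlap of CPM between the groups. Of the 6 phloem markers SUC2 and SMXL3 rose and 3 fell. All 5 cambium markers fell. Of 4 periderm markers 3 fell, none by 1 or more, and 1 rose. The pericycle list held only 2 genes, which fell. Both lists were planned with more genes. Over all lists, 18 entries were dropped because code and symbol did not pair in the annotation. Of 6 tested endodermis markers 3 fell and 3 were not called, and of 4 tested lateral root primordium markers 3 rose. Sums for xylem (421.9 to 601.7 against 464.3 to 753.3), nuclear photosynthesis genes (7321 to 8932 against 7330 to 7702), root hairs (6.287 to 6.62 against 4.933 to 11.3) and root tip and cap (1.608 to 2.017 against 0.7439 to 2.122) overlapped. Of the markers kept, CASP5, PUCHI, GATA23 and BRN2 were too low to be tested. The part that shifts in these cell types play in the results below was not tested.

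After 8 h, many genes had moved a little and a smaller set had moved far, mostly downward. Of 21439 genes tested, 45.5% were called, 4785 higher (22.3%) and 4963 lower (23.1%). These shares over all genes are the background for every count of list members given below. The lists and their members were chosen with earlier results of these data known, so comparisons with this background are a description. Among changes of at least 1 on the log2 scale (9.73% of tested genes), 478 genes were higher (2.23%) and 1607 lower (7.5%). The same excess of falls held at larger folds, with 135 genes higher and 437 lower by at least 2, and 59 higher and 145 lower by at least 3. The small changes are sensitive to scaling: with total library size in place of TMM, 7407 genes were higher and 3971 lower, 65.1% of calls being higher against 49.1%, while changes of at least 1 were 590 higher and 1414 lower. A test against a log2 fold change of 1 (glmTreat), which asks more than passing it by estimate, left 170 higher and 656 lower.

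**Figure D1:**
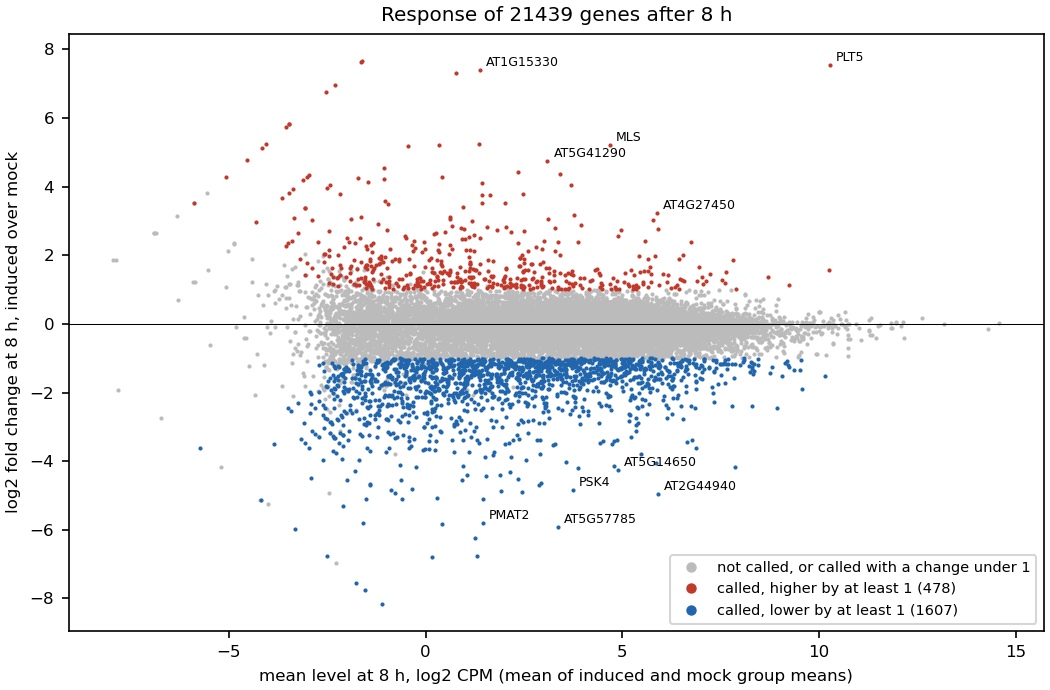
Response of each tested gene at 8 h. The x axis is the mean level in log2 CPM, the y axis the log2 fold change of induced over mock roots, red and blue points are called genes with a change of at least 1, and 2 tested genes with 0 counts at 8 h are not drawn. The 1607 genes that fell outnumber the 478 that rose, and PLT5 stands alone at the upper right.

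Large changes were more frequent among genes at low level. By the mean over all 12 libraries, 5.66% of the 2369 genes under 1 CPM were higher and 17.6% lower by at least 1, against 0.723% and 3.98% of the 1936 genes at 100 CPM or more. The share called at any size was 27% in the lowest class and 45.5% in the highest. The filter keeps a low gene when 1 group alone is high enough, and the mean takes in the libraries at 24 h. Genes could thus enter the lowest class through their change, while steady genes at the same mean are more readily filtered out. How much of the difference between classes comes from this was not tested. The strongly responding protein-coding genes had fewer exons and less exon sequence than tested genes at large, as a description with no test. The median number of exons was 3 in the 465 that rose by at least 1 and 3 in the 1577 that fell, against 5 over all 20478 tested, and the share with a single exon was 21.7% and 26.3%, against 14.3%. Their median exon sequence was 1567 bases in the genes that rose and 1561 bases in those that fell, against 1761 bases over all.

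The largest rises came from genes that were nearly silent in mock roots and differed widely in function. Malate synthase (MLS, AT5G03860, chromosome 5, 1032099 to 1034973, minus strand), an enzyme of the glyoxylate cycle, had 51.51, 50.6 and 47.14 CPM in induced roots, against 1.559, 1.469 and 0.983 CPM in mock roots. All induced libraries lay far above all mock libraries (log2 fold change 5.22, SE 0.115, adjusted p = 6.35e-11). AT1G15330, which encodes a protein with cystathionine beta-synthase (CBS) domains, had 612 counts over the induced libraries and 3 over the mock libraries, a ratio of 190 with a 95% counting interval of 64.6 to 922. Next came AT5G41280, AT5G41290 and AT5G41300, described below with other neighbouring genes, and the cysteine proteinase gene CP1, which rose by 4.11 (SE 0.581, adjusted p = 0.000125) with induced libraries spread over 2.266, 8.637 and 4.382 CPM, against 0.2556, 0.5097 and 0.1328 CPM in mock libraries.

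Other strong rises included regulators and growth genes. SK12, a SKP1-like subunit of SCF ubiquitin ligases, was measured tightly, with 24.61, 26.5 and 22.86 CPM in induced roots, against 2.684, 2.788 and 2.657 CPM in mock roots (log2 fold change 3.19, SE 0.0848, adjusted p = 4.21e-10). RTFL10 (ROTUNDIFOLIA-like 10), of a family of small peptides known to change organ shape when overexpressed, had 6.847, 8.921 and 6.701 CPM in induced roots, against 0.7413, 0.6596 and 0.5579 CPM in mock roots. Its log2 fold change was 3.51 (SE 0.18, adjusted p = 7.35e-08). AT1G49475, a B3-domain transcription factor gene, rose by 3.77 (SE 0.297, adjusted p = 1.21e-06), AT2G45180, a lipid-transfer-like protein gene, by 4.06 (SE 0.309, adjusted p = 9.42e-07), and AT1G13530, of unknown function, by 3.07 (SE 0.187, adjusted p = 1.95e-07). GA20OX2, a gibberellin synthesis enzyme, rose by 3.75 (SE 0.289, adjusted p = 1.03e-06) to 5.052 ± 0.673 CPM in induced roots, against 0.3705 ± 0.202 CPM in mock roots. AHP4, a phosphotransfer protein of the cytokinin pathway, rose by 3.77 (SE 0.325, adjusted p = 2.38e-06), and its response at 24 h was smaller by 2.8 (adjusted p = 0.000428 for the difference).

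**Figure D2:**
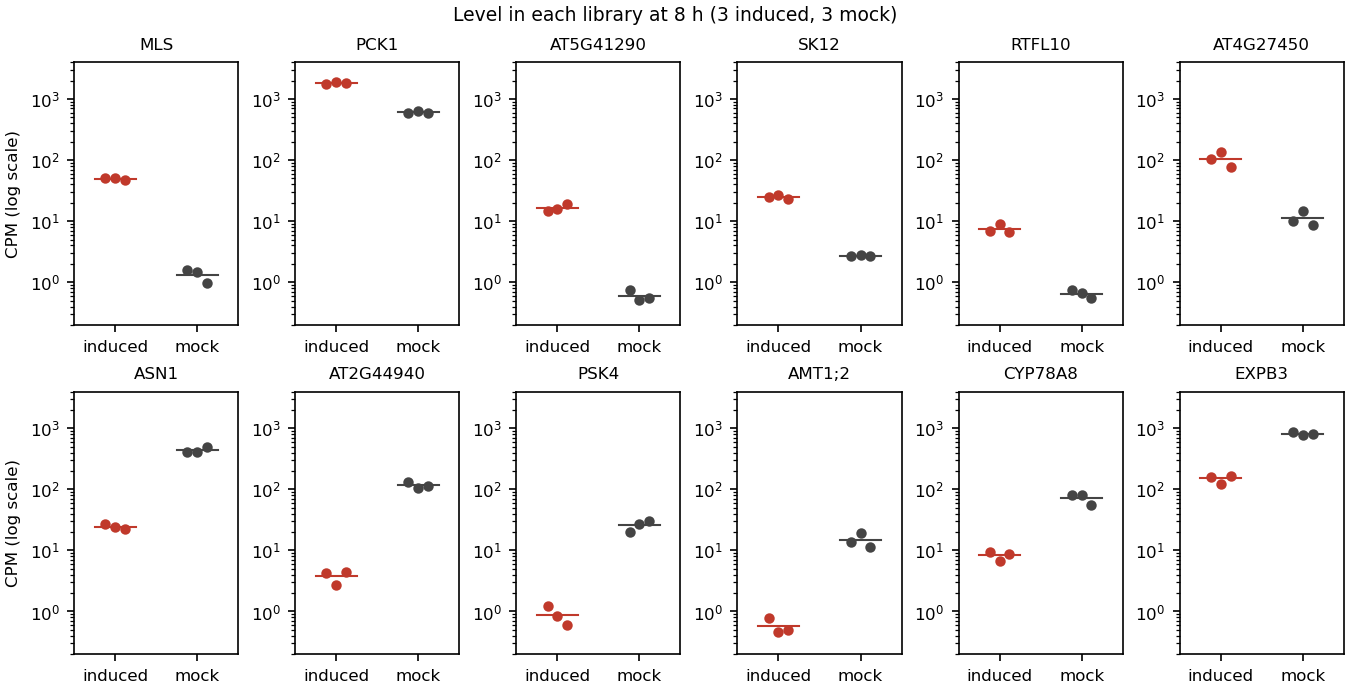
Level in CPM on a log scale in each of the 3 induced and 3 mock libraries at 8 h for 6 genes that rose (top) and 6 that fell (bottom), points being libraries and lines group means. In all 12 panels the induced and mock libraries are apart; MLS, for example, averaged 49.75 CPM in induced and 1.337 CPM in mock roots.

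Among the steepest falls were a transcription factor gene, a peptide hormone gene and genes of transport. AT2G44940, an AP2/ERF-type factor gene (chromosome 2, 18537177 to 18538479, plus strand), had 4.191, 2.689 and 4.356 CPM in induced roots, against 130.6, 104.1 and 114.3 CPM in mock roots (log2 fold change -4.95, SE 0.199, adjusted p = 2.17e-08). Every mock library exceeded 100 CPM and every induced library stayed under 5 CPM. PSK4, a precursor of the growth peptide phytosulfokine, had 1.218, 0.8533 and 0.5928 CPM in induced roots, against 19.91, 27.04 and 30.39 CPM in mock roots and fell by 4.85 (SE 0.252, adjusted p = 7.98e-08). The ammonium transporter gene AMT1;2 had 0.7797, 0.4655 and 0.4897 CPM in induced roots, against 13.55, 19.07 and 11.45 CPM in mock roots and fell by 4.65 (SE 0.267, adjusted p = 1.24e-07). For each of these genes the lowest mock library was several times the highest induced one.

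Where mock roots reached 5 CPM and the groups did not overlap, AT5G57785, of unknown function, had the largest fall. It fell by 5.93 (SE 0.317, adjusted p = 8.36e-08), with 0.3301 ± 0.163 CPM in induced roots and 20.25 ± 3.6 CPM in mock roots. The acyltransferase gene PMAT2 fell by 5.81 (SE 0.355, adjusted p = 1.97e-07), the LysM-domain gene AT4G25433 fell by 5.11 (SE 0.328, adjusted p = 2.78e-07), AT3G46880 of unknown function fell by 4.91 (SE 0.297, adjusted p = 1.84e-07), and the aquaporin gene PIP2;6 fell by 4.88 (SE 0.309, adjusted p = 2.51e-07). AT1G06830, a glutaredoxin gene, fell by 4.52 (SE 0.367, adjusted p = 1.56e-06), the glutamine dumper gene GDU5, linked to amino acid export, fell by 4.39 (SE 0.42, adjusted p = 5.62e-06), and AT1G20990, with a C1 domain, fell by 4.31 (SE 0.326, adjusted p = 8.97e-07). NAS4, which makes the metal chelator nicotianamine, fell by 4.19 (SE 0.214, adjusted p = 7.35e-08). Mock libraries varied more for the pectin lyase-like gene AT5G14650, at 18.79, 65.99 and 83.05 CPM, against 2.607, 2.793 and 3.376 CPM in induced libraries, and for the lipid-transfer-like gene AT3G22142, with 0.5484 ± 0.296 CPM in induced roots and 14.25 ± 6.03 CPM in mock roots. Both still fell, with log2 fold changes of -4.26 (SE 0.486, adjusted p = 2.36e-05) and -4.69 (SE 0.39, adjusted p = 1.82e-06).

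Genes of the glyoxylate cycle and gluconeogenesis, which turn the products of fat breakdown into sugar in germinating seeds, rose together. Of 8 tested, 7 rose and none fell, with a median of 0.68 against 0.02 over all genes tested. Isocitrate lyase (ICL), the other enzyme particular to the cycle, had 13.86, 12.13 and 11.5 CPM in induced roots, against 4.345, 4.287 and 3.587 CPM in mock roots and rose by 1.62 (SE 0.12, adjusted p = 7.66e-07). Phosphoenolpyruvate carboxykinase (PCK1), which commits carbon to sugar synthesis, was already abundant and had 1738, 1880 and 1851 CPM in induced roots, against 589.8, 646.9 and 585.4 CPM in mock roots, a rise of 1.59 (SE 0.0646, adjusted p = 2.31e-08). The peroxisomal citrate synthases CSY2 and CSY3 rose by 0.46 and 0.29 (adjusted p = 5.3e-05 and 0.000376) and the peroxisomal malate dehydrogenase PMDH2 by 0.91 (SE 0.191, adjusted p = 0.00205). Of 12 genes of peroxisomal beta-oxidation, which feeds the cycle, 5 rose, ACX3 by 0.59 (SE 0.0586, adjusted p = 7.72e-06) and MFP2 by 0.43 (SE 0.0538, adjusted p = 4.72e-05), and the thiolase gene KAT5 fell by 1.17 (SE 0.0915, adjusted p = 1.11e-06). PXA1, the peroxisomal importer of fatty acids, rose by 0.21 (SE 0.0499, adjusted p = 0.00474). Of 11 genes of branched-chain amino acid breakdown, 4 rose and none fell, DIN4 by 0.63 (SE 0.082, adjusted p = 6.29e-05).

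Genes known as responsive to sugar lack and darkness did not move as one group. Of 14 tested, 5 rose (35.7%, against 22.3% of all genes tested) and 4 fell (28.6%, against 23.1%). ASN1, the dark-inducible asparagine synthetase, had 27.05, 23.97 and 22.37 CPM in induced roots, against 408.9, 412.6 and 497 CPM in mock roots and fell by 4.17 (SE 0.149, adjusted p = 9.07e-09). DIN2, a beta-glucosidase, fell by 1.40 (SE 0.243, adjusted p = 0.000571), and the sugar-regulated factor gene BZIP11 fell by 1.32 (SE 0.115, adjusted p = 2.58e-06), whereas the trehalose phosphate synthase-like gene TPS11 rose by 1.13 (SE 0.205, adjusted p = 0.000795). Several genes at high level described in the annotation as dormancy- or aluminium-induced rose. AT4G27450 had 106, 135.5 and 75.75 CPM in induced roots, against 10.07, 14.84 and 8.74 CPM in mock roots (log2 fold change 3.24, SE 0.241, adjusted p = 8.02e-07). AT3G15450, of the same family, had 604.2, 765.5 and 417.4 CPM in induced roots, against 137.3, 352.3 and 205.9 CPM in mock roots, and AT2G33830, dormancy-associated, had 885.3, 967.5 and 632.2 CPM in induced roots, against 320, 461.5 and 347.3 CPM in mock roots. Induced libraries lay above mock libraries in each, with the narrowest gap in AT3G15450. The last pair rose by 1.36 (SE 0.291, adjusted p = 0.0024) and 1.14 (SE 0.261, adjusted p = 0.00369). MEE14 rose by 1.86 (SE 0.233, adjusted p = 4.68e-05) and the chaperone gene J8 by 1.29 (SE 0.189, adjusted p = 0.000163). In all of these, induced replicate 2 was the highest induced library and induced replicate 3 the lowest.

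Transport genes fell in most families tested, and single members rose against the trend. Of 47 amino acid transporter genes (UMAMIT, AAP and LHT), 34 fell (72.3%, against 23.1% of all genes tested) and 3 rose (6.38%, against 22.3%), a median of -0.90. UMAMIT33, of the UMAMIT family, had 1.608, 0.9309 and 1.34 CPM in induced roots, against 12.93, 12.2 and 15.81 CPM in mock roots and fell by 3.39 (SE 0.193, adjusted p = 1.23e-07). AAP6, an importer, fell by 1.54 (SE 0.103, adjusted p = 3.56e-07). LHT1, a high-affinity importer, went the other way, with 128.8, 125.7 and 153.7 CPM in induced roots, against 32.26, 34.63 and 42 CPM in mock roots, a rise of 1.91 (SE 0.127, adjusted p = 3.62e-07). Among 18 genes of nitrate and ammonium uptake and assimilation, 6 rose (33.3%) and 7 fell (38.9%). NRT1.8, which unloads nitrate from the xylem, fell to 10.6, 9.852 and 11.19 CPM in induced roots, against 89.92, 47.4 and 75.48 CPM in mock roots (log2 fold change -2.75, SE 0.205, adjusted p = 8.21e-07), and the nitrate reductase NIA2 fell by 1.14 (SE 0.152, adjusted p = 7.61e-05), whereas NRT3.1, partner of the high-affinity nitrate transporters, rose by 0.58 (SE 0.0899, adjusted p = 0.000256) and the plastid glutamine synthetase GLN2 by 0.71 (SE 0.129, adjusted p = 0.00083). 

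For phosphate, 8 of 15 genes fell and 1 rose. PHO1, which loads phosphate into the xylem and is also a pericycle marker, fell by 1.31 (SE 0.116, adjusted p = 2.95e-06), its relative PHO1;H1 fell by 2.40 (SE 0.214, adjusted p = 3.07e-06) and the starvation-induced pyrophosphatase PS2 fell by 2.62 (SE 0.319, adjusted p = 3.98e-05). For sulfate, 11 of 16 fell and 2 rose. The sulfate reductases APR1 and APR3 fell, with log2 fold changes of -1.09 (SE 0.0932, adjusted p = 2.26e-06) and -0.78 (SE 0.0646, adjusted p = 1.82e-06), and SULTR3;5, a helper of root-to-shoot sulfate transport, fell by 1.63 (SE 0.164, adjusted p = 8.59e-06), while SULTR3;1 rose by 1.51 (SE 0.201, adjusted p = 7.78e-05). Sulfate genes that rose numbered 1 without induced replicate 3 or without mock replicate 3. For iron, 8 of 18 fell and 2 rose. FIT, the master regulator of iron uptake, had 5.921, 6.232 and 6.469 CPM in induced roots, against 14.34, 15.98 and 16.71 CPM in mock roots (log2 fold change -1.34, SE 0.103, adjusted p = 1.03e-06), and NAS1, NAS2 and the proton pump AHA2 fell, with log2 fold changes of -1.79 (SE 0.164, adjusted p = 3.96e-06), -1.63 (SE 0.253, adjusted p = 0.000247) and -1.34 (SE 0.114, adjusted p = 2.13e-06). IRT1, the iron importer of the root epidermis, rose by 3.49 (SE 0.686, adjusted p = 0.00138) but was hardly present, with 0.3899, 1.603 and 0.8763 CPM in induced roots, against 0.02556, 0.05996 and 0.1594 CPM in mock roots.

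For potassium and sodium, 7 of 12 genes fell and none rose. The channel gene AKT2 fell by 2.01 (SE 0.173, adjusted p = 2.4e-06) and the exchanger gene CHX17 fell by 2.64 (SE 0.325, adjusted p = 4.27e-05). KAT1 had 3 counts over the induced libraries and 27 over the mock libraries, a ratio of mock over induced of 9.68 (2.98 to 49.9). Of 21 aquaporin genes, 14 fell and 1 rose, or 2 without mock replicate 2. PIP2;1 fell by 1.18 (SE 0.134, adjusted p = 2.29e-05) and TIP1;1 fell by 1.27 (SE 0.157, adjusted p = 4.45e-05). The one that rose was PIP2;3, with 128.9, 183 and 139 CPM in induced roots, against 32.95, 40.29 and 38.5 CPM in mock roots (log2 fold change 2.01, SE 0.115, adjusted p = 1.23e-07). PIP2;3 and its neighbour PIP2;2 share 26.2% and 24% of their 50-base stretches exactly, so reads may be split between them. Sugar transport and cleavage genes were mixed, 8 higher (40%) and 7 lower (35%) of 20, against 22.3% and 23.1% of all genes tested. SWEET2, a vacuolar sugar carrier of roots, fell by 2.01 (SE 0.152, adjusted p = 8.98e-07), SUC2, the sucrose loader of the phloem, rose by 2.38 (SE 0.161, adjusted p = 4.03e-07), and CWINV1, the cell wall invertase, rose by 1.44 (SE 0.118, adjusted p = 1.64e-06) with 191.2, 229.1 and 234.7 CPM in induced roots, against 71.49, 87.69 and 81.64 CPM in mock roots. 

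**Figure D3:**
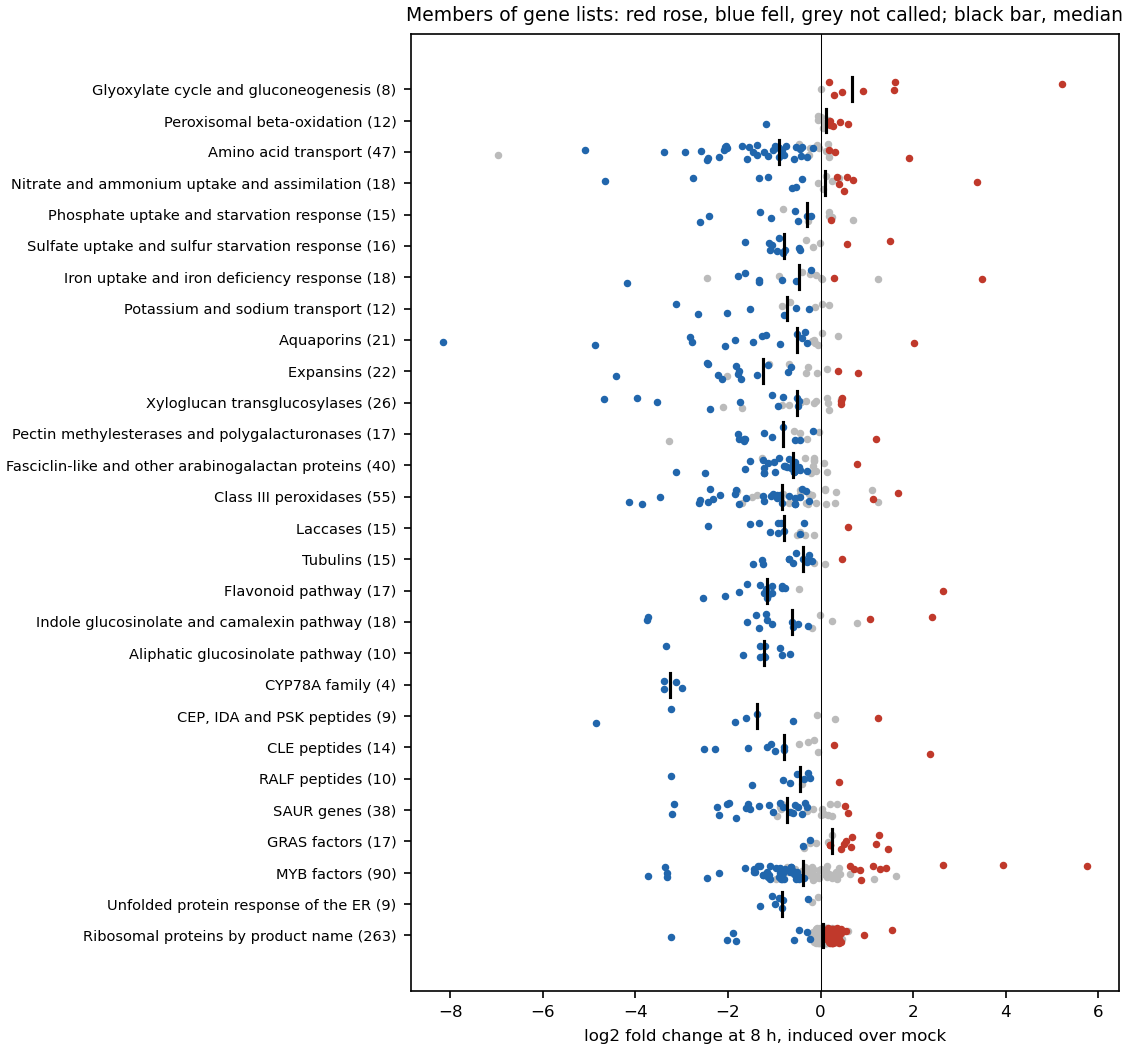
Log2 fold change at 8 h, induced over mock, of every tested member of 28 of the 81 gene lists. Numbers tested are in brackets. The lists drawn are a selection. Medians of some lists left out were near 0 (26S proteasome subunits -0.01, WRKY factors -0.10, autophagy genes 0.10). Others left out were lower, such as berberine bridge enzyme-like oxidases at -0.97. Red points rose, blue points fell, grey points were not called and the black bar is the median. Of the medians drawn, that of the CYP78A genes, -3.26, lies furthest to the left and that of the glyoxylate genes, 0.68, furthest to the right. Single members of some other lists lie further to the left than the CYP78A genes.

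Genes that loosen, build or cross-link the cell wall fell more often than they rose in each family examined. Of 22 expansin genes, whose products loosen walls, 13 fell and 2 rose, a median of -1.25. The rises numbered 1 without induced replicate 1 or 2 or mock replicate 1 or 3. EXPB3, at high level, had 161.5, 122.6 and 167.5 CPM in induced roots, against 881.8, 783.3 and 791.8 CPM in mock roots (log2 fold change -2.44, SE 0.122, adjusted p = 6.61e-08), EXPA10 fell by 2.13 (SE 0.151, adjusted p = 5.65e-07), EXPA15 fell by 2.44 (SE 0.181, adjusted p = 7.66e-07) and EXPA8 fell by 4.42 (SE 0.527, adjusted p = 3.33e-05). Of 26 xyloglucan transglucosylase genes, 11 fell and 3 rose, and the falls numbered 6 without induced replicate 2 and 7 without induced replicate 1 or mock replicate 2. XTH31 had 113.3, 75.95 and 112.2 CPM in induced roots, against 565.1, 474.9 and 539.6 CPM in mock roots and fell by 2.39 (SE 0.156, adjusted p = 3.06e-07), and XTH20 fell by 3.54 (SE 0.237, adjusted p = 3.71e-07). Among 17 genes of pectin methylesterases and polygalacturonases 11 fell and 1 rose. QRT2 fell by 1.77 (SE 0.181, adjusted p = 9.67e-06), QRT3 fell by 1.66 (SE 0.113, adjusted p = 4.03e-07) and PMEPCRF fell by 1.76 (SE 0.102, adjusted p = 1.3e-07). The endoglucanase GH9B13 and the pectin lyase-like gene AT4G24780 stood among the most abundant genes per length that fell, with 586.3 ± 90.1 CPM in induced roots and 1696 ± 183 CPM in mock roots and with 323.7 ± 32.9 CPM in induced roots and 1203 ± 128 CPM in mock roots (log2 fold changes -1.53 and -1.89, adjusted p = 2.36e-06 and 1.31e-07).

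Of 40 arabinogalactan protein genes, 28 fell and 1, FLA8, rose by 0.79 (SE 0.0966, adjusted p = 3.94e-05). AGP16 fell by 1.22 (SE 0.0705, adjusted p = 1.3e-07) and FLA1 fell by 0.90 (SE 0.0954, adjusted p = 1.24e-05). Of 9 cellulose synthase genes, 4 fell, none by 1 or more. These were CESA1, CESA5, CESA6 and CEV1 (the symbol in use here for AT5G05170), genes of primary wall synthesis in Arabidopsis, with log2 fold changes of -0.48, -0.51, -0.26 and -0.22. Tubulin genes, which encode the microtubules that guide cellulose deposition, fell in 12 of 15 cases and rose in 1, or in 2 without induced replicate 2. TUB5 fell by 1.28 (SE 0.11, adjusted p = 2.49e-06), TUB8 fell by 1.25 (SE 0.107, adjusted p = 2.22e-06) and TUB1 fell by 1.46 (SE 0.132, adjusted p = 3.73e-06), while TUA1 rose by 0.46 (SE 0.0828, adjusted p = 0.000747). Of 55 class III peroxidase genes, which cross-link wall phenolics, 29 fell and 2 rose. AT1G44970 fell by 4.15 (SE 0.284, adjusted p = 4.35e-07), AT5G47000 fell by 3.87 (SE 0.309, adjusted p = 1.34e-06) and AT2G18980 fell by 3.46 (SE 0.322, adjusted p = 4.56e-06), and AT2G41480 rose by 1.13 (SE 0.266, adjusted p = 0.00451). Of 15 laccase genes 10 fell and 1 rose. LAC7 fell by 1.52 (SE 0.0931, adjusted p = 1.97e-07) and LAC16 fell by 2.44 (SE 0.227, adjusted p = 4.44e-06).

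Genes of the flavonoid and aliphatic glucosinolate pathways fell almost throughout. Of 17 flavonoid genes, 15 fell and the median was -1.15. Chalcone synthase (TT4), the entry enzyme, had 533.1, 408.4 and 518.7 CPM in induced roots, against 1077, 1052 and 878 CPM in mock roots and fell by 1.04 (SE 0.162, adjusted p = 0.000263). F3H fell by 1.59 (SE 0.191, adjusted p = 3.54e-05) and the anthocyanidin reductase BAN fell by 2.55 (SE 0.245, adjusted p = 6.01e-06). PAP2, an activator of anthocyanin genes, had 22 counts over the induced and 3 over the mock libraries, a ratio of 6.81 (2.05 to 35.6). All 10 tested genes of the aliphatic glucosinolate pathway fell, a median of -1.21. They include the regulator MYB28 (-1.20), the first enzymes BCAT4 (-1.22) and CYP79F2 (-1.68) and the importers GTR1 (-0.88) and GTR2 (-1.31). The adjusted p-values of these 5 lay between 8.98e-07 and 2.69e-05. In the indole glucosinolate and camalexin list, 12 of 18 fell and 2 rose. The regulator MYB34 had 125.4, 108.1 and 114.8 CPM in induced roots, against 274.7, 241 and 260.1 CPM in mock roots. CYP79B2 and CYP79B3, which make the shared precursor indole-3-acetaldoxime, fell, with log2 fold changes of -1.33 (SE 0.134, adjusted p = 8.08e-06) and -1.59 (SE 0.167, adjusted p = 1.21e-05), and the camalexin enzyme PAD3 fell by 3.74 (SE 0.35, adjusted p = 4.8e-06). CYP81F1, which modifies indole glucosinolates, rose to 73, 99.61 and 69.93 CPM in induced roots, against 17.97, 13.79 and 13.92 CPM in mock roots (log2 fold change 2.41, SE 0.148, adjusted p = 2.06e-07).

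Of 156 cytochrome P450 genes, 34 rose (21.8%, near the 22.3% of all genes tested) and 70 fell (44.9%, against 23.1%). CYP71B13 fell by 2.75 (SE 0.134, adjusted p = 6.11e-08). UDP-glycosyltransferase genes fell in 24 of 51 cases (47.1%) and rose in 6 (11.8%), or in 3 without induced replicate 1. UGT72E2, which glucosylates lignin precursors, fell by 2.40 (SE 0.144, adjusted p = 1.78e-07). Glutathione transferase genes fell in 14 of 43 cases (32.6%) and rose in 3 (6.98%), or in 5 without mock replicate 3. GSTU20 fell by 1.53 (SE 0.132, adjusted p = 2.44e-06). Berberine bridge enzyme-like oxidase genes fell in 13 of 18 cases and rose in 1. AT1G30700 fell by 1.50 (SE 0.116, adjusted p = 1.06e-06), and AT1G26390 rose by 2.14 (SE 0.342, adjusted p = 0.000319). 

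Some of the response lay in runs of neighbouring genes. Runs of at least 3 tested genes side by side that all changed by at least 1 in the same direction numbered 33, 4 of them higher and 29 lower, with 106 genes in all. Requiring 4 genes left 5 runs, all lower, with 22 genes. Of all genes tested, 2.23% were higher and 7.5% lower by at least 1. The number of runs that these shares alone would give was not worked out, so the counts are a description. The run with the largest rises held AT5G41280, AT5G41290 and AT5G41300 on chromosome 5 (16509507 to 16516331, TAIR10), which encode proteins related to receptor-like kinases. AT5G41290 had 14.45, 15.54 and 19.43 CPM in induced roots, against 0.7413, 0.5097 and 0.5579 CPM in mock roots (log2 fold change 4.75, SE 0.227, adjusted p = 5.25e-08). AT5G41280 rose by 4.37 (SE 0.233, adjusted p = 8.36e-08) and AT5G41300 by 4.42 (SE 0.284, adjusted p = 2.78e-07). Exact 50-base stretches common to another of these copies made up 3.28% of AT5G41280, 3.4% of AT5G41290 and 0% of AT5G41300.

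Of the falling runs, 2 held 5 genes each. One lay on chromosome 1 (7386762 to 7405426) and held IGMT1, IGMT3, IGMT2 and IGMT4, indole glucosinolate methyltransferases, and AT1G21140, of the vacuolar iron transporter family. Their log2 fold changes were -1.04, -1.85, -1.23, -1.95 and -2.35, with adjusted p-values from 1.67e-06 to 0.00495. IGMT2 and IGMT3 are near-copies, sharing 39.5% and 47.5% of their 50-base stretches with other IGMT genes, so their separate values are uncertain. The unlinked IGMT5 fell by 1.19 (SE 0.0898, adjusted p = 8.98e-07). The other, of genes of the thioredoxin superfamily, lay on chromosome 4 (8925571 to 8938124). AT4G15680 had 0.1949, 0.05172 and 0.4382 CPM in induced roots, against 3.451, 2.518 and 3.215 CPM in mock roots, and the run ranged from -3.73 in AT4G15680 to -1.43 in AT4G15700. The thalianol cluster of root triterpene genes on chromosome 5 (19428888 to 19461706) formed a run of 4. Thalianol synthase (THAS1) had 63.35, 60.22 and 45.16 CPM in induced roots, against 189.5, 203.9 and 145.8 CPM in mock roots and fell by 1.68 (SE 0.29, adjusted p = 0.000568), THAH fell by 1.74 (SE 0.191, adjusted p = 1.77e-05), THAD fell by 1.56 (SE 0.319, adjusted p = 0.0018) and the acyltransferase gene AT5G47980 fell by 1.25 (SE 0.248, adjusted p = 0.00148). In the marneral cluster, by contrast, CYP71A16 rose by 1.86 (SE 0.301, adjusted p = 0.000343), and the synthase MRN1 had 26 counts over the induced and 2 over the mock libraries, a ratio of 12.1 (3.02 to 105). The remaining runs of 4 held AT2G01990, GAD3, GAD4 and PTR4, and AT2G22880, AT2G22890, AT2G22900 and AT2G22905, where the call for AT2G22880 was lost without induced replicate 2. 

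**Figure D4:**
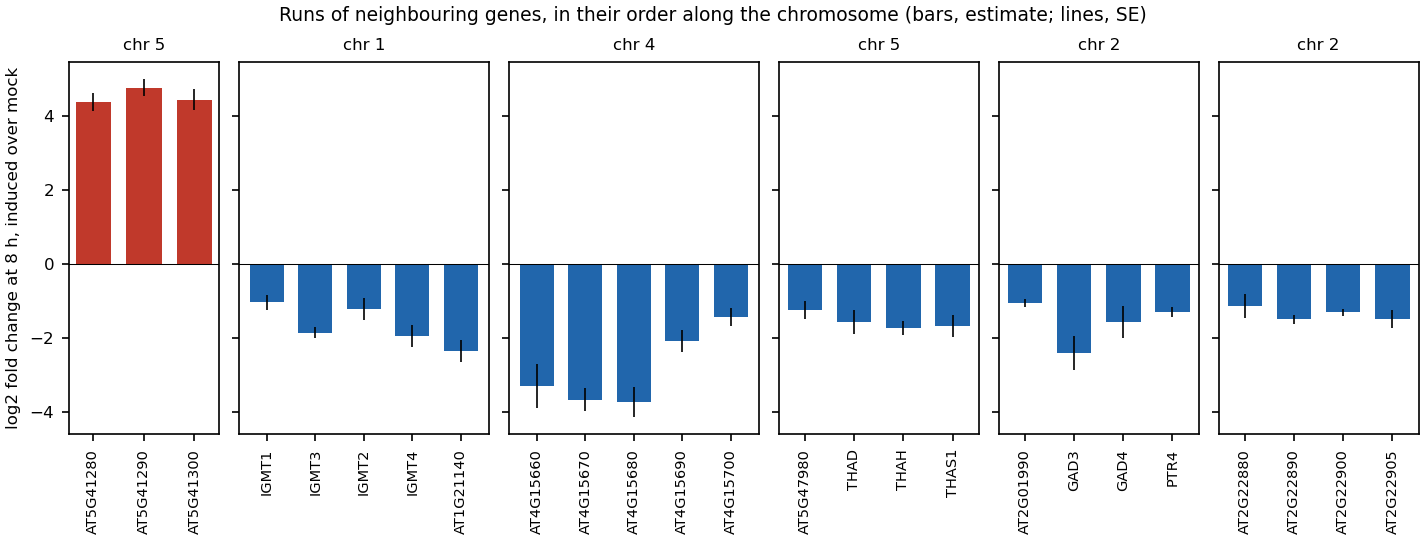
Log2 fold change at 8 h, induced over mock, of genes in 6 runs, in their order along the chromosome; bars are estimates and lines SE. The AT5G41280 run is between 4.37 and 4.75, and all members of the other 5 runs are below -1.

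Among organ growth genes, all 4 tested CYP78A genes fell, a median of -3.26. These P450 enzymes extend the growth of organs and seeds in Arabidopsis, and CYP78A5 is known as KLUH. CYP78A8 had 9.528, 6.594 and 8.738 CPM in induced roots, against 80.95, 81.07 and 55.63 CPM in mock roots (log2 fold change -3.13, SE 0.159, adjusted p = 7.16e-08). CYP78A9 fell by 3.39 (SE 0.163, adjusted p = 5.37e-08), CYP78A6 fell by 3.39 (SE 0.203, adjusted p = 1.74e-07) and CYP78A5 fell by 3.00 (SE 0.197, adjusted p = 3.27e-07), the last with 0.9016, 0.5689 and 1.108 CPM in induced roots, against 7.157, 6.865 and 6.642 CPM in mock roots. CYP78A7 and CYP78A10 were too low to be tested. Among organ polarity genes, KAN2 and KAN3 fell, with log2 fold changes of -1.27 (SE 0.143, adjusted p = 2.09e-05) and -1.36 (SE 0.123, adjusted p = 3.48e-06), and KAN1 and KAN4 rose by 0.49 (SE 0.106, adjusted p = 0.00255) and 1.30 (SE 0.239, adjusted p = 0.000876). FIL (FILAMENTOUS FLOWER), a YABBY factor of the lower leaf side, had 75 counts over the induced libraries and 0 over the mock libraries, at least 23.2-fold higher when 3 counts over the mock group are assumed. Of 17 KNOX and BELL homeobox genes, which maintain meristems, 10 fell, 1 of them by at least 1. KNAT1 fell by 0.63 (SE 0.0622, adjusted p = 7.62e-06), KNAT6 fell by 0.75 (SE 0.0661, adjusted p = 2.72e-06) and ATH1 fell by 1.31 (SE 0.128, adjusted p = 6.87e-06). Genes of that list that rose numbered 2, or 1 without induced replicate 2, mock replicate 1 or mock replicate 3, and BLH3 rose by 0.47 (SE 0.0692, adjusted p = 0.000182). Of 11 growth-regulating factors and partners, 3 rose, GRF3 by 1.10 (SE 0.202, adjusted p = 0.000859), none fell and 8 were not called. The share that rose, 27.3%, was near the 22.3% of all genes tested.

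Transcription factor families moved to different degrees. Of 90 MYB genes, 39 fell and 10 rose, a median of -0.38. MYB68 had 43.37, 36.05 and 40.08 CPM in induced roots, against 100.1, 91.14 and 112.1 CPM in mock roots and fell by 1.34 (SE 0.0947, adjusted p = 5.48e-07), and MYB9 fell by 2.20 (SE 0.16, adjusted p = 7.04e-07). NAC genes fell in 35 of 82 cases (42.7%) and rose in 16 (19.5%, near the 22.3% of all genes tested), or in 9 without induced replicate 1. NAC080 fell by 2.27 (SE 0.15, adjusted p = 3.42e-07). GRAS genes rose in 10 of 17 cases and fell in 2, a median of 0.24; without any 1 of the 6 libraries 1 fell. SHR (SHORT-ROOT) had 28.12, 35.5 and 27.97 CPM in induced roots, against 13.67, 15.38 and 11 CPM in mock roots, a rise of 1.19 (SE 0.132, adjusted p = 1.87e-05), and the DELLA genes GAI and RGL3 rose by 1.45 (SE 0.214, adjusted p = 0.000171) and 1.27 (SE 0.13, adjusted p = 9.83e-06). AP2/ERF genes other than PLT5 numbered 105, with 17 higher (16.2%) and 24 lower (22.9%, near the 23.1% of all genes tested) and a median of -0.04 (0.06 with total library size). Members named by the rule include TDR1, with 0, 0 and 0.1289 CPM in induced roots, against 5.189, 4.947 and 4.543 CPM in mock roots. RAP2.2 rose by 1.02 (SE 0.0547, adjusted p = 8.36e-08), with 316.3, 327.3 and 301.6 CPM in induced roots, against 152.8, 153.2 and 160.5 CPM in mock roots. In other families, bZIP5 and TGA9 fell, with log2 fold changes of -2.79 (SE 0.155, adjusted p = 9.64e-08) and -1.44 (SE 0.0832, adjusted p = 1.3e-07), and PAN rose by 1.30 (SE 0.14, adjusted p = 1.51e-05). HAT2 rose by 1.99 (SE 0.108, adjusted p = 8.42e-08) with 88.94, 107.7 and 75.55 CPM in induced roots, against 22.16, 23.8 and 22.53 CPM in mock roots. WRKY22 rose by 1.43 (SE 0.197, adjusted p = 0.0001), TCP4 by 1.07 (SE 0.135, adjusted p = 5.15e-05) and the shoot and embryo factor MNP by 1.84 (SE 0.294, adjusted p = 0.000313). Falls outnumbered rises among WRKY genes (21 and 12 of 62), homeodomain-leucine zipper genes (17 and 9 of 47), bZIP genes (15 and 11 of 47) and GATA genes (11 and 6 of 24). Of 16 TCP genes 2 fell and 4 rose. The shares that rose in these families, 19.1% to 25%, lay near the 22.3% of all genes tested.

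Peptide and growth signalling genes fell more often than they rose. In the list of CEP, IDA and PSK peptides, 6 of 9 fell and 1 rose. PSK5 fell by 1.84 (SE 0.141, adjusted p = 9.72e-07) and IDL5 fell by 1.60 (SE 0.133, adjusted p = 1.86e-06), whereas PSK1 rose, with 17.84, 16.08 and 16.47 CPM in induced roots, against 6.825, 5.486 and 8.98 CPM in mock roots (log2 fold change 1.24, SE 0.143, adjusted p = 2.55e-05). Of 14 CLE genes 8 fell and 2 rose, the rises being 1 without induced replicate 1 or 2 or mock replicate 2 or 3. CLE14 had 7.651, 9.412 and 8.583 CPM in induced roots, against 1.713, 1.139 and 2.099 CPM in mock roots, a rise of 2.36 (SE 0.195, adjusted p = 1.72e-06), and CLE45, a phloem-expressed peptide gene, fell by 2.28 (SE 0.196, adjusted p = 2.31e-06). RALF genes fell in 8 of 10 cases, or in 5 with total library size. RALFL34 fell by 1.48 (SE 0.119, adjusted p = 1.39e-06). SAUR genes, early auxin targets linked to cell expansion, fell in 22 of 38 cases and rose in 2, or in 1 without any single 8 h library but mock replicate 3. AT5G50760 fell by 2.03 (SE 0.158, adjusted p = 1.07e-06) and AT1G72430 fell by 1.98 (SE 0.138, adjusted p = 4.79e-07). ATAUX2-11, an AUX/IAA gene, rose by 1.25 (SE 0.0907, adjusted p = 6.78e-07) with 213.6, 203.4 and 177.9 CPM in induced roots, against 80.59, 84.69 and 84.85 CPM in mock roots. Of 9 ethylene synthesis genes, 2 rose (22.2%) and 3 fell (33.3%), against 22.3% and 23.1% of all genes tested. Of 14 abscisic acid genes, 4 rose (28.6%) and 7 fell (50%). Of 10 brassinosteroid genes, 3 rose (30%) and 5 fell (50%). ACS2, an ethylene synthesis gene, fell by 3.68 (SE 0.261, adjusted p = 5.65e-07), CYP707A1, which breaks down abscisic acid, fell by 1.37 (SE 0.0928, adjusted p = 3.96e-07), and BAS1, which inactivates brassinosteroids, rose by 1.01 (SE 0.141, adjusted p = 0.000115).

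Of 9 genes of the unfolded protein response of the endoplasmic reticulum, 7 fell and none rose. The chaperone BIP2 had 116.4, 93.92 and 139 CPM in induced roots, against 313.7, 277.5 and 278.6 CPM in mock roots (log2 fold change -1.32, SE 0.129, adjusted p = 7.08e-06), and BIP1, CNX1 and CRT1A fell, with log2 fold changes of -1.04 (SE 0.11, adjusted p = 1.3e-05), -0.97 (SE 0.102, adjusted p = 1.15e-05) and -0.89 (SE 0.094, adjusted p = 1.25e-05). Of 25 heat shock protein genes 6 fell (24%, against 23.1% of all genes tested) and 1 rose, so the share that fell was near that of all genes. SHD fell by 0.81 (SE 0.0881, adjusted p = 1.59e-05). Of 12 cold and dehydration genes 7 fell and 1 rose. COR15A fell by 1.57 (SE 0.281, adjusted p = 0.000717) and P5CS1 fell by 0.93 (SE 0.0733, adjusted p = 1.26e-06). Among 263 ribosomal protein genes by product name, organellar ones included, 46 rose (17.5%, against 22.3% of all genes tested) and 8 fell (3.04%, against 23.1%), a median of 0.05. The rises numbered 29 without induced replicate 2, 30 without mock replicate 2 and 100 with total library size. EMB3126 rose by 0.46 (SE 0.0551, adjusted p = 3.27e-05). Of 9 ribosome biogenesis genes 4 rose by small amounts, NRPA2 by 0.27 (SE 0.0621, adjusted p = 0.00349).

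Total RNA libraries also count transcripts without poly(A) tails. Of 118 tested small nucleolar RNA genes, 17 rose (14.4%, below the 22.3% of all genes tested) and none fell, a median of 0.21. AT2G08760 rose by 0.30 (SE 0.111, adjusted p = 0.0447), a call lost when any 1 of the 6 libraries was left out. Long non-coding RNA genes rose in 66 of 482 cases (13.7%) and fell in 49 (10.2%), both below the shares over all genes. AT1G26208 rose by 0.91 (SE 0.0862, adjusted p = 5.26e-06). The precursors of trans-acting small RNAs moved apart: TAS3 had 9.43, 9.93 and 10.72 CPM in induced roots, against 21.39, 17.06 and 22.69 CPM in mock roots and fell by 1.02 (SE 0.115, adjusted p = 2.03e-05), and TAS1A had 15.42, 17.97 and 17.22 CPM in induced roots, against 8.205, 7.765 and 10.6 CPM in mock roots, a rise of 0.93 (SE 0.111, adjusted p = 3.38e-05). Plastid genome transcripts took 6.69%, 6.63% and 6.76% of counts in induced libraries, against 6.13%, 6.14% and 6.32% in mock libraries (exact permutation test, two-sided, p = 0.1, the smallest that 3 against 3 allows), and 1 of 101 plastid genes was called. Mitochondrial transcripts took 2.19% to 2.41% against 2.12% to 2.31%, which overlapped.

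Of the 9748 genes called at 8 h, 8224 were called in the same direction at 24 h in separate libraries, 276 in the opposite direction, and 1248 were not called. At 24 h, 72.3% of all tested genes were called. The difference between the responses was called for 40.8% of genes. Of the 1607 genes lower by at least 1 at 8 h, 997 were further from mock at 24 h by that test and 56 closer or beyond. Of the 478 higher by at least 1, 127 were further and 53 closer or beyond, and 298 were not called different. 

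A small set turned round between the times. SWEET13, a sucrose exporter, had 0.4142, 1.034 and 0.6186 CPM in induced roots, against 2.607, 1.499 and 2.524 CPM in mock roots at 8 h (log2 fold change -1.69, SE 0.403, adjusted p = 0.00467). The 24 h value was 2.23 (adjusted p = 0.000116, SE 0.361). MYB56 fell by 1.10 (SE 0.138, adjusted p = 5.04e-05) at 8 h and stood at 0.71 (adjusted p = 0.000294, SE 0.128) at 24 h. AT2G19920, encoding an RNA-dependent RNA polymerase, and AT2G45220, a pectin methylesterase inhibitor gene, also fell at 8 h, with log2 fold changes of -2.14 (SE 0.216, adjusted p = 8.6e-06) and -1.64 (SE 0.317, adjusted p = 0.00123), and at 24 h stood at 0.50 (adjusted p = 0.0207, SE 0.175) and 1.10 (adjusted p = 0.00283, SE 0.272). NCED3, a rate-limiting enzyme of abscisic acid synthesis, fell by 0.81 (SE 0.259, adjusted p = 0.0229), a call lost without induced replicate 1, induced replicate 2 or mock replicate 2, and AT1G47395 fell by 1.07 (SE 0.358, adjusted p = 0.0283), a call lost without induced replicate 2 or 3 or mock replicate 2 or 3. In the other direction, the beta-xylosidase BXL2 had 253.6, 336.5 and 231 CPM in induced roots, against 101.4, 154.7 and 100.5 CPM in mock roots at 8 h (log2 fold change 1.20, SE 0.249, adjusted p = 0.00194), and stood at -1.73 (adjusted p = 5.96e-05, SE 0.257) at 24 h. Rises at 8 h and later falls were also seen in SNG1, an acyltransferase of sinapate ester synthesis, which rose by 1.09 (SE 0.259, adjusted p = 0.00474) and at 24 h stood at -1.51 (adjusted p = 0.000341, SE 0.278), XTH15 by 0.46 (SE 0.0901, adjusted p = 0.00136) and at -2.10 (adjusted p = 2.93e-09, SE 0.104), and AT2G32550 by 0.67 (SE 0.135, adjusted p = 0.00157) and at -1.74 (adjusted p = 4.17e-07, SE 0.149). The rises of AT1G78450 (0.59 (SE 0.202, adjusted p = 0.0309)) and AT1G44180 (0.44 (SE 0.15, adjusted p = 0.0308)) were lost in some fits without 1 library, AT1G78450 without induced replicate 2 or mock replicate 1, and AT1G44180 without any 1 library but mock replicate 3.

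**Figure D5:**
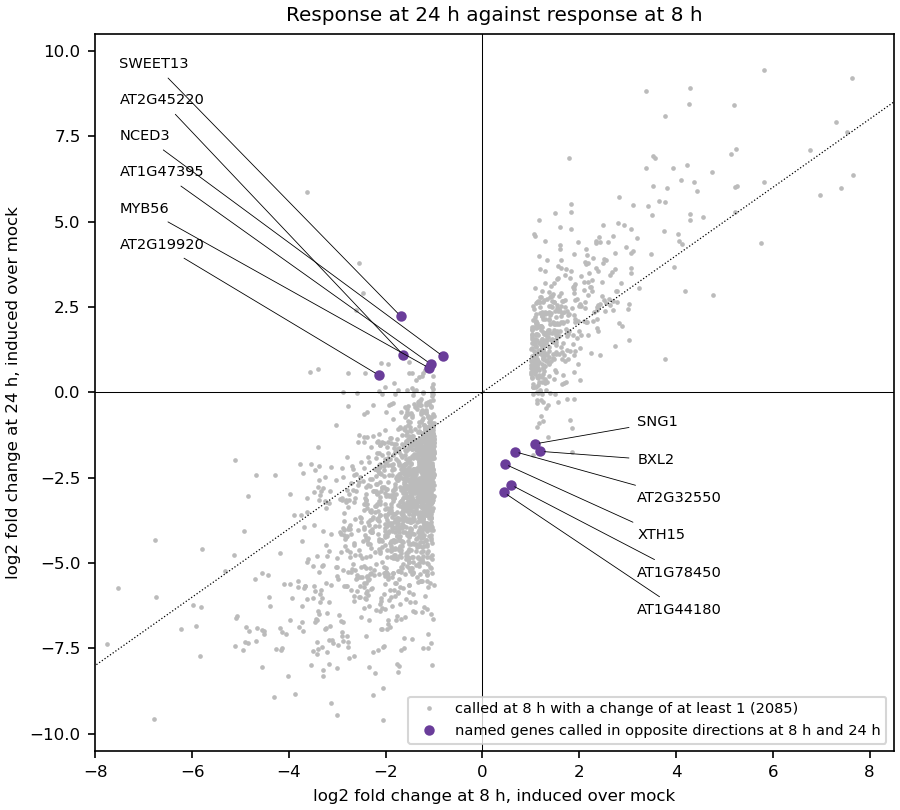
Log2 fold change at 24 h (y axis) against 8 h (x axis), induced over mock, for the 2085 genes called with a change of at least 1 at 8 h (grey) and the 12 named genes called in opposite directions at the 2 times (purple). The dotted line marks equal responses; most grey points on the left lie below it, 997 of 1607 being further from mock at 24 h.

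Promoter windows were searched on both strands for CAC, 3 bases of any kind and TCCC. This pattern is looser than the consensus known for in vitro binding of AINTEGUMENTA, a relative of PLT5, which restricts some of the middle bases, so a window that holds it need not hold the consensus. Windows ran from 250 bases before to 50 bases after the annotated start of each protein-coding gene. The motif was present in 9 of 465 genes higher by at least 1 (1.94%), in 24 of 1577 lower by at least 1 (1.52%), in 248 of 20477 tested genes (1.21%) and in 328 of 27443 genes in all (1.2%). None of the 30 genes with the largest rises and falls held it. Of the 462 genes that the naming rule picks, 273 changed by at least 1 and had a window, and 6 of these held it. Shown here, with the motif in capitals, are the 1 that rose, the dormancy-associated gene AT2G33830 (log2 fold change 1.14), and the 2 that fell most, CYP78A5 and the SAUR gene AT1G19840 (log2 fold change -1.53). Sequences are from the TAIR10.1 genome, 5′ to 3′ along the gene's strand.
AT2G33830 (chr2:14310559-14310858, minus strand): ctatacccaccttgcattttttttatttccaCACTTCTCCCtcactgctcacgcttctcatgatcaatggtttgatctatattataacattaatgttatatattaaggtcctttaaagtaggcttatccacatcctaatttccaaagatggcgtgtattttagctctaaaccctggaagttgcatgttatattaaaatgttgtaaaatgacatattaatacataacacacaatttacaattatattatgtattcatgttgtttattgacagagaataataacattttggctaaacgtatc
CYP78A5 (chr1:4704645-4704944, minus strand): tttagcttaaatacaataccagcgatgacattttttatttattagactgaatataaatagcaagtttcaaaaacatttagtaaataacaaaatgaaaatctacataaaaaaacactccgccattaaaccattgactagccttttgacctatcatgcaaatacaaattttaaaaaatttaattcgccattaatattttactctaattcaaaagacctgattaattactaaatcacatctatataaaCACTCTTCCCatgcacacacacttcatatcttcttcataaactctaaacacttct
AT1G19840 (chr1:6873309-6873608, minus strand): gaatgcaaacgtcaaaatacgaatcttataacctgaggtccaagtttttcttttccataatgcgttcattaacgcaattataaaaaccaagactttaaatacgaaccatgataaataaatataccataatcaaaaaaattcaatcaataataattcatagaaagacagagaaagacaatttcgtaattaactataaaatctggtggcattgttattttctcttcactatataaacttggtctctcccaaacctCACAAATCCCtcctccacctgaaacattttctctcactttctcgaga
In AT2G33830 the motif began 219 bases before the start, in CYP78A5 it began 5 bases before the start and ran across it, and in AT1G19840 it lay just after the start. A match is a description of these letters, and nothing here measures binding.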

How the data were processed

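Strand-specific total RNA libraries (TruSeq Stranded Total RNA) were sequenced from pooled root segments, per the labels' protocols. The deposited files hold whole-number read counts per gene, made by the authors on TAIR10 coordinates, per the file headers and the submitters' processing notes; for aligner, counter and strand setting nothing is given in the sources used here, so reads of overlapping and antisense genes may be mixed. Counts of PLT5 pool the native gene and the transgene.

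Of 34262 loci, 32548 were matched to RefSeq annotation of TAIR10.1 by locus tag, with the same start and end in 99.95%. Genes kept by edgeR's filterByExpr were fitted over all 12 libraries (1 mean per group, TMM scaling) with the quasi-likelihood test of edgeR 4.0.16 in R 4.3.3, adjusted by Benjamini-Hochberg. CPM used TMM-scaled library sizes; SE is the fold change divided by the square root of F. Alternatives were DESeq2 1.42.0, other scalings, no filter, 6 libraries, a replicate block, glmTreat and leaving out each library. On simulated counts over 21238 genes for the 8 h comparison, 100% of the changed genes were recovered at each fold size, of 50 genes each, and 5.21% of calls were false. The changed genes were drawn from those with a mean of at least 50 counts, and every gene had the same dispersion. Far fewer genes were changed than were called in the real data. The simulation thus checks the fit, and does not measure recovery or false calls among genes at low level or of wider spread. The biological coefficient of variation was 0.0926. Replicates are biological per the labels.

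Named genes are PLT5, the 15 largest rises and falls without overlap that reached 5 CPM in either group, the 10 most abundant per kb in each direction, for every list the 5 called members of smallest adjusted p and the first opposite one, and, by fixed rules, strong members of transcription factor lists, genes of opposite direction at 24 h, the longest runs and non-coding genes. Members and lists were chosen with earlier results of these data known. In all, 81 lists were examined, and the text gives only part of them. Lists defined by symbol can miss members. Counting intervals are exact, at 95%, and cover counting error only. Promoter windows were read from the TAIR10.1 genome.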

Additional observations from a re-analysis of the deposited data

Results flagged for a closer look

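The response at 8 h and the response at 24 h differed, by the interaction test of edgeR's quasi-likelihood fit, in 12 named genes called in opposite directions at the 2 times. They were chosen by those opposite calls and by the largest differences between the times. The choice made a called difference likely, so their tests and sizes are a description and no separate evidence. Given as the log2 fold change at 24 h minus that at 8 h, genes that fell first and were higher later had differences of 3.93 in SWEET13, 2.74 in AT2G45220, 2.64 in AT2G19920, 1.89 in AT1G47395, 1.86 in NCED3 and 1.8 in MYB56. Genes that rose first and were lower later had differences of -3.37 in AT1G44180, -3.3 in AT1G78450, -2.93 in BXL2, -2.6 in SNG1, -2.56 in XTH15 and -2.42 in AT2G32550. The response of AHP4, a rise at both times, was smaller at 24 h by that test, with a difference of -2.8. The calls at 8 h for AT1G44180, AT1G47395, AT1G78450 and NCED3 did not survive leaving out single libraries, as given above.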

How the results depend on the processing

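Few settings moved a count of calls by more than 1.5 times: total library size gave 7407 genes higher at 8 h in place of 4785, the glmTreat test against a log2 fold change of 1 gave 170 higher and 656 lower in place of 478 and 1607, and runs of at least 4 genes numbered 5 in place of 33. Total library size moved the median of all genes by 0.096. DESeq2 called 3939 higher and 5270 lower, 42.8% of calls being higher. Leaving out single libraries gave 3612 to 4268 genes higher and 4107 to 4654 lower. Of the 462 genes that the naming rule picks, 212 are named in the text, and of these none changed sign and 6 lost their call in some setting, among them NCED3 with the 6 libraries alone. A gene that a setting did not test was skipped there and not counted as lost, as PAP2 was with the 6 libraries alone. List counts moved in 52 of 1056 refits and list medians in 70 of 528. Deviations of same-numbered libraries correlated at 0.307, 0.0933 and 0.115, not all above 0.1, so the numbers were not taken to pair the samples. Each induced library correlated best with the mock library of its own number, whereas mock replicate 2 correlated best with induced replicate 3, at 0.112; this is a hint from the data, not the design. With a replicate block, 5078 genes were higher and 5282 lower. Low counts limit the genes given by counts alone, and fold changes at low level are less exact.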
